A study of Ovis aries with 15 samples.

Results

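The genes of retinoid metabolism and signalling were followed through the ovine mammary gland in late pregnancy and lactation. The 9 genes were RBP4, STRA6 and CRABP2 (carriers and uptake), DHRS3 (a retinaldehyde reductase), ALDH1A1, ALDH1A2 and ALDH1A3 (the retinaldehyde dehydrogenases), and RARA and RARB (retinoic acid receptors). They were chosen as rows whose identifier is 1 of these symbols, and 8 of the 9 have such a row among the 24691 features of the table. RARA is carried there under its gene number only, as LOC101107973, which RefSeq pairs with the symbol RARA, and it is described here as the ninth gene. The group was chosen by measured values of this contrast, after the exon reads of ALDH1A2 had been seen at the floor of detection in lactation, so the comparison of the states is a description for these 9 genes and carries no test.

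RNA came from needle biopsies of mammary parenchyma of 2-year-old primiparous Romney ewes, taken at day 135 of gestation (± 2.4 SD) or day 15 post partum (± 1.27 SD). Each library was a pool of several ewes. By the labels a pool held 3 ewes in late pregnancy and 2 in lactation, and the methods of the study give another number for lactation. There were 9 late pregnancy and 6 lactation libraries, divided by what the ewes' own dams ate from day 21 to day 50 of gestation: ad libitum (HM), maintenance (MM) or sub-maintenance (LM). From then to day 140 every dam was fed at maintenance. All ewes were themselves managed alike, and the methods describe sampling in late pregnancy and again in lactation, so that libraries of the 2 states may share ewes. Because RNA was pooled, statistical tests measure the spread between pools. The main tests of the states treat the libraries as independent and do not allow for shared ewes.

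Vitamin A circulates as retinol bound to RBP4. STRA6 is the cell surface receptor that takes retinol from RBP4. Inside the cell retinol is either stored as an ester or oxidised to retinaldehyde, and the ALDH1A enzymes oxidise retinaldehyde irreversibly to retinoic acid. CRABP2 carries retinoic acid to the nucleus, where it binds the RAR receptors, which act on DNA as dimers with the RXR receptors. The mammary gland also passes vitamin A into milk, mainly as retinyl esters in the fat.

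Late pregnancy libraries held 6471237 to 16898986 reads on exons (median 13919007) and lactation libraries 9014506 to 24001031 (median 15075423). For features without a transcript these totals take the reads on the whole gene. One library stood apart. The first HM lactation pool had 13.2% of its gene reads on introns, against 5.85% to 6.68% in the other 5 lactation libraries and 14.4% to 16.1% in late pregnancy. Results for the 9 genes are given with and without it. The tissue carried the luminal epithelial markers in every library, with summed levels of 1643 to 2001 CPM in late pregnancy and 2519 to 2737 CPM in lactation. CPM are reads per 1000000 after scaling by trimmed mean of M-values (TMM), which centres the comparison on the bulk of genes. The TMM library sizes were 10942394 to 29599906 in late pregnancy and 4549945 to 11491285 in lactation. At equal CPM most lactation libraries thus held fewer reads of a gene.

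Of the 9 genes, 7 were lower in lactation, and ALDH1A3 and RARA were slightly higher after TMM scaling but lower under library size alone. The 4 genes RBP4, CRABP2, DHRS3 and ALDH1A2 were lower with no overlap between the libraries of the states, and none was higher in that way. Of all tested genes 20.0% were lower and 20.2% higher without overlap. In 5 of the 9 the level was over 2-fold lower and in 1 of them over 4-fold, beside 13.0% and 3.71% of all tested genes that were called and this much lower. In the edgeR fit across 13345 tested genes, 6 of the 9 fell under the call threshold (adjusted p under 0.05), all of them lower, beside 35.2% of all tested genes that were called lower and 33.1% that were called higher. Nothing is read from these counts, because the genes were picked with this contrast known. Their median log2 difference (lactation over late pregnancy) was -1.07, and that of all tested genes was -0.03.

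Levels of different genes were compared per length, as RPKM within a state. In late pregnancy ALDH1A1 had the highest mean level (199 RPKM), and DHRS3 (68.7 RPKM) and CRABP2 (27.5 RPKM) followed, each without overlap with its neighbours in the order. RARA (7.85 RPKM), RBP4 (5.17 RPKM) and ALDH1A2 (3.11 RPKM) came next, and each overlapped the following gene of the 3. ALDH1A3 (1.14 RPKM), RARB (0.825 RPKM) and STRA6 (0.517 RPKM) were the lowest and overlapped in the same manner. In lactation ALDH1A1 (48.5 RPKM) and DHRS3 (8.40 RPKM) again stood above the rest without overlap. RARA (2.46 RPKM) and CRABP2 (2.19 RPKM) overlapped, as did RBP4 (0.693 RPKM) and ALDH1A3 (0.407 RPKM). RARB (0.154 RPKM), STRA6 (0.0508 RPKM) and ALDH1A2 (0.0277 RPKM) stood at the bottom, with neighbouring genes overlapping. ALDH1A2 thus moved from the sixth place to the last. RPKM are relative to all reads on genes, milk protein genes included, so they were not compared between the states.

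**Figure D1:**
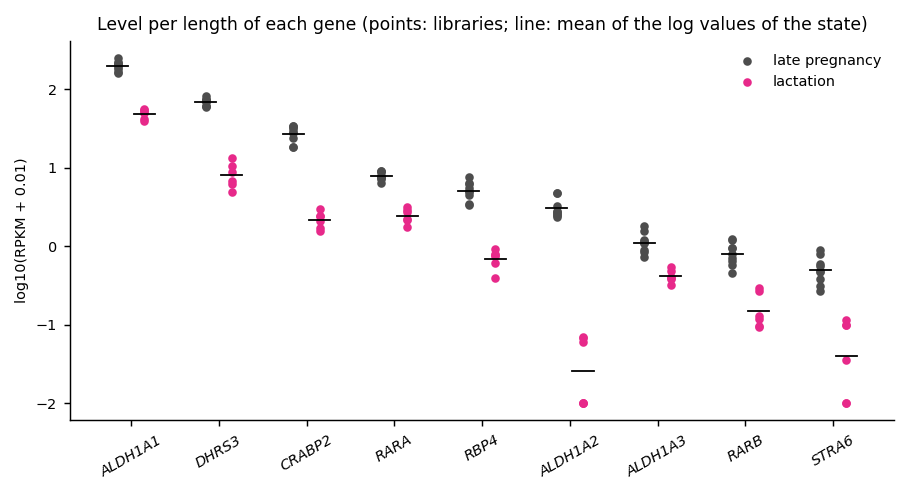
Level of each gene per length, as log10(RPKM + 0.01), with the genes in the order of their late pregnancy means. Each point is a library (9 late pregnancy in grey, 6 lactation in pink) and each line is the mean of the log values. ALDH1A1 stood highest in both states, and ALDH1A2 and STRA6 had lactation libraries at 0 reads, which are drawn at the bottom.

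RBP4, the plasma carrier of retinol, lies on chromosome 22 from 14598383 to 14605274 and has 5 exons (coordinates throughout are those of the deposited table, for which the processing notes name the build Oar_v3.1, while the methods name another version). Its level in late pregnancy had a lowest value of 3.11 CPM, a median of 4.47 CPM and a highest value of 7.17 CPM. In lactation these were 1.22, 2.27 and 2.93 CPM. Every lactation library was below every late pregnancy library. The mean was 2.10-fold lower in lactation, a log2 difference of -1.07 ± 0.22 (SE).

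STRA6, the receptor for RBP4 (chromosome 18, 33369391 to 33395211), was close to the limit of detection in both states. It had 5 to 28 reads per late pregnancy library, or 0.380 to 1.29 CPM with a median of 0.723 CPM. Lactation libraries held 0 to 5 reads, or 0 to 0.564 CPM with a median of 0.285 CPM, and 3 of the 6 overlapped the late pregnancy range. The ratio of summed reads per summed TMM library size was 2.60 (95% exact interval 1.47 to 5.0) in favour of late pregnancy. This interval and the others like it are taken on summed reads, so they cover counting error only and leave out the spread between pools. The reads also carry no molecular identifiers. The log2 difference was -1.39 ± 0.47 (SE).

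CRABP2, which delivers retinoic acid to its receptors, is encoded on chromosome 1 from 105239039 to 105244831. Its lowest, median and highest levels were 12.9, 19.4 and 24.4 CPM in late pregnancy. In lactation they were 3.48, 5.32 and 7.33 CPM. The states did not overlap, and the mean was 3.67-fold lower in lactation (log2 difference -1.88 ± 0.17 SE). After TMM scaling this was the largest of the 9 differences after that of ALDH1A2.

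DHRS3 reduces retinaldehyde back to retinol and so opposes retinoic acid formation (chromosome 12, 39247173 to 39298368). Late pregnancy libraries lay between 84.3 and 127 CPM with a median of 102 CPM. Lactation libraries lay between 26.4 and 64.0 CPM with a median of 40.5 CPM. All 6 lactation values were under the lowest of late pregnancy. The mean was 2.33-fold lower, with a log2 difference of -1.22 ± 0.15 (SE), and the spread among lactation libraries (SD 15.1 CPM) was as wide as in late pregnancy (SD 12.9 CPM) at less than 50% of the level.

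The 3 retinaldehyde dehydrogenases did not share a pattern. ALDH1A2 lies on chromosome 7 from 49204002 to 49321108 and has 15 exons. In late pregnancy it had 50 to 215 exon reads per library, and its level was 3.88 CPM at the lowest, 4.57 CPM at the median and 7.57 CPM at the highest. In lactation the second HM pool held 2 reads and each MM pool held 3 reads. The first HM pool and both LM pools held 0 reads, and a count of 0 there allows a level of up to 0.659, 0.407 and 0.571 CPM, respectively. The highest lactation value, 0.352 CPM, was thus far below the lowest of late pregnancy. Over all libraries of a state there were 1009 reads in late pregnancy and 8 in lactation. The ratio of summed reads per summed TMM library size was 28.8 (95% exact interval 14.6 to 66.9). The fitted log2 difference was -4.75 ± 0.39 (SE), a value which depends on the prior count of the model when most libraries hold so few reads.

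ALDH1A1 was the most abundant of the 9 genes and the least different of those that were lower (chromosome 2, 63233323 to 63288390). Its lowest, median and highest levels were 223, 295 and 333 CPM in late pregnancy and 200, 248 and 269 CPM in lactation. The ranges overlapped, and the log2 difference was -0.25 ± 0.09 (SE). ALDH1A3 (chromosome 18, 4690671 to 4729816) went the other way by a small amount. It lay at 0.940, 1.39 and 2.20 CPM in late pregnancy and at 1.41, 1.74 and 2.20 CPM in lactation, with a log2 difference of 0.32 ± 0.21 (SE). Its libraries overlapped over the whole lactation range.

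The receptor RARA (chromosome 11, 40159759 to 40172203) was at similar values in both states. Late pregnancy libraries ranged from 6.58 to 9.03 CPM with a median of 8.21 CPM, and lactation libraries from 6.09 to 10.1 CPM with a median of 8.82 CPM. The log2 difference was 0.12 ± 0.11 (SE). RARB, a receptor whose own gene is a known target of retinoic acid, lies on chromosome 26 from 38699308 to 39145793. It ranged from 0.776 to 2.21 CPM in late pregnancy (median 1.55 CPM) and from 0.543 to 1.65 CPM in lactation (median 0.732 CPM). The first HM and the first MM lactation pools, with 1.54 and 1.65 CPM, lay within the late pregnancy range, and the other 4 lactation libraries were below its lowest value. Its log2 difference was -0.62 ± 0.30 (SE).

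**Figure D2:**
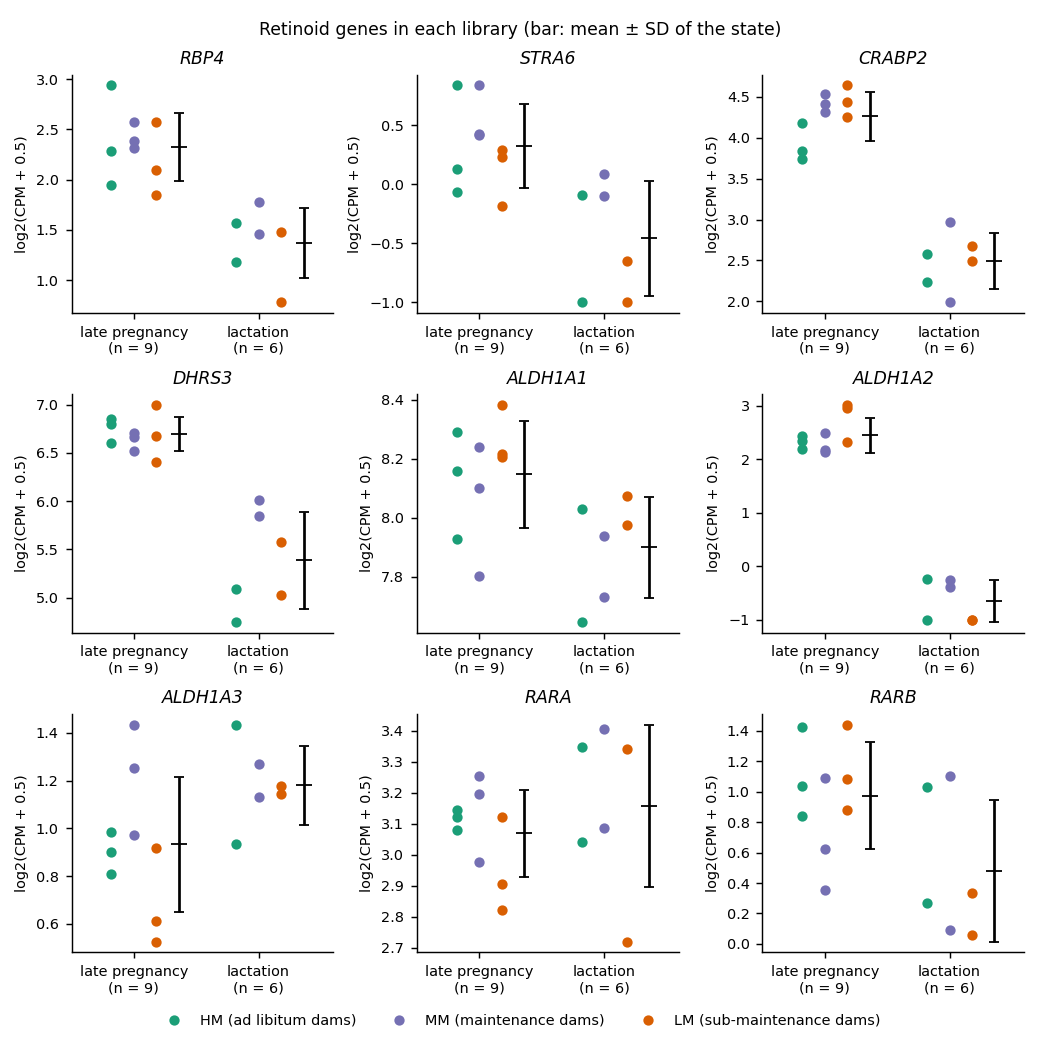
Level of each of the 9 genes in every library, as log2(CPM + 0.5), coloured by the nutrition of the ewes' dams. Bars show the mean ± SD of the log values in 9 late pregnancy and 6 lactation libraries. RBP4, CRABP2, DHRS3 and ALDH1A2 have every lactation point under every late pregnancy point, whereas the states overlap for ALDH1A3 and RARA.

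The library that stood apart did not carry these differences. Without the first HM lactation pool the log2 differences were -4.59 for ALDH1A2, -1.89 for CRABP2, -1.16 for DHRS3 and -1.03 for RBP4. Those of STRA6 and RARB were -1.47 and -0.73, and that of ALDH1A1 was -0.28. ALDH1A3 and RARA stayed above 0, at 0.27 and 0.10. Within the dam nutrition groups CRABP2 differed by -1.62 in HM, -1.99 in MM and -1.95 in LM, and RBP4 by -1.19, -0.92 and -1.27. Other genes were less even. RARB differed by -0.58, -0.01 and -1.41 and ALDH1A3 by 0.39, 0.00 and 0.64. STRA6 differed by -0.96 in MM and -2.81 in LM and did not pass the filter on low counts in HM. ALDH1A2 differed by -4.46 in HM and -3.84 in MM, and both LM lactation pools held no read of it.

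The size of each difference depended on the scale. Milk protein genes take a large part of the reads in lactation, and scaling by library size alone moved the median of all tested genes to -1.94. On that scale all 9 genes were lower, ALDH1A3 (-1.58) and RARA (-1.78) included, although these 2 remained above the median of all genes. ALDH1A2 (-6.58), CRABP2 (-3.79), STRA6 (-3.23), DHRS3 (-3.13), RBP4 (-2.98), RARB (-2.50) and ALDH1A1 (-2.15) were below that median, as they were after TMM scaling. RARA also changed sign after upper quartile scaling (-0.03) and after library size without the milk protein genes (-0.08), where the medians of all genes were -0.18 and -0.24, so no direction is given for it. On quantile-normalised RPKM plus 1 the low genes were compressed, with log2 differences of -1.55 for ALDH1A2, which was then closer to 0 than CRABP2 (-1.73), -0.26 for STRA6 and -0.14 for RARB, while ALDH1A1 was further from 0 (-0.54).

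**Figure D3:**
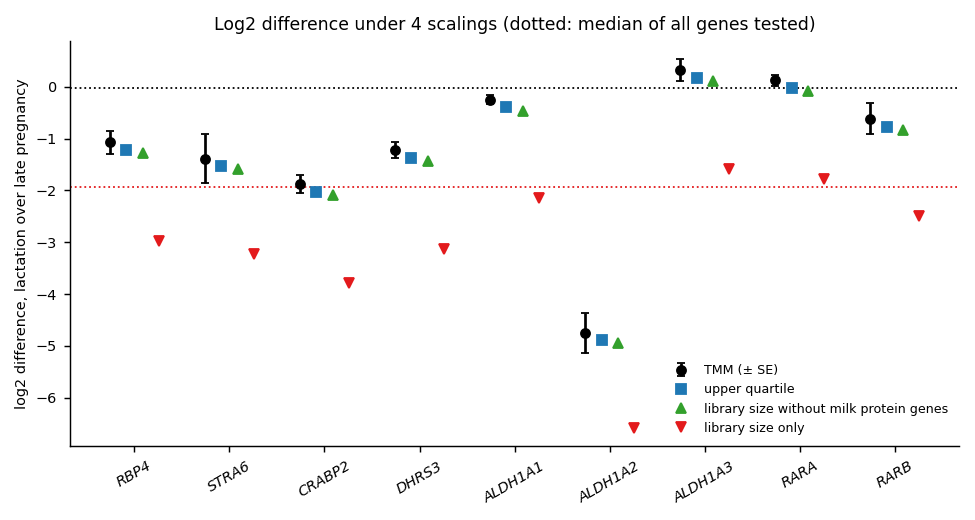
Log2 difference of lactation over late pregnancy for the 9 genes under 4 scalings of the libraries. Black points with bars are TMM estimates ± SE, and dotted lines mark the median of all tested genes under TMM (-0.03) and under library size alone (-1.94). ALDH1A2 lies lowest under each scaling, and the sign of RARA depends on the scaling.

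Reads on introns can come from unprocessed transcripts, and they were taken as the difference between whole-gene and exon reads. Over all genes together the intron share was 14.4% to 16.1% in late pregnancy libraries and 5.85% to 13.2% in lactation libraries. This share is of summed reads, to which milk protein genes give a large part in lactation. It therefore does not show how the shares of single genes moved. Whether a lower share in lactation is particular to DHRS3 and ALDH1A1 was not tested. DHRS3 introns had 48.2 CPM in late pregnancy and 12.6 CPM in lactation, a log2 difference of -1.97, and the share of its gene reads on introns was 31.4% and 22.7%. ALDH1A1 had a small intron share (3.52% and 1.91%), and its intron reads differed by -1.24, more than its exon reads did. For CRABP2 the intron share was 28.0% in late pregnancy and 29.0% in lactation, and its intron reads differed by -1.92, close to the value on exons. ALDH1A2 had 795 intron reads of 1804 gene reads in late pregnancy (44.1%) and 13 of 21 in lactation (61.9%), with a log2 difference of -3.82 on introns. Introns of RARA differed by 0.29 and those of RARB by -0.61. The intron share of RARA was 21.3% in late pregnancy and 24.2% in lactation, and that of RARB 47.2% and 48.2%. The intron reads of ALDH1A3, RBP4 and STRA6 were too few to pass the filter. These are reads of the same libraries and the same contrast as the exon reads.

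The biopsies were bulk tissue, in which fewer cells of a type and less RNA per cell cannot be told apart. Levels of cell type markers are given beside the 35.2% of all tested genes called lower and the 33.1% called higher, and nothing is read from a count near those shares. Of 10 fibroblast markers 7 were called lower in lactation and 0 higher. Their summed level was 1379 to 2205 CPM in late pregnancy and 679 to 1090 CPM in lactation. Collagens carried that sum, with means of 835 and 313 CPM for COL3A1, 402 and 147 CPM for COL1A2, and 283 and 108 CPM for COL1A1. LUM (110 and 93.0 CPM), FBLN1 (19.4 and 15.1 CPM) and DPT (30.3 and 36.5 CPM) were not called. Endothelial markers were called lower in 8 of 9 tested (227 to 304 CPM and 153 to 216 CPM). T cell markers were called lower in 6 of 6 tested (42.0 to 68.9 CPM and 13.4 to 20.9 CPM), and macrophage markers in 4 of 6 (142 to 191 CPM and 70.5 to 101 CPM). Among mesothelial markers WT1 was at 0 reads in every library and BNC1 had at most 1 read. The sum of the mesothelial list was 217 to 312 CPM in late pregnancy and 107 to 130 CPM in lactation. KRT7 carried the sum, with means of 262 and 121 CPM. That sum thus follows this keratin, and no mesothelial level is read from it. Of 3 tested markers 2 were called lower, KRT7 and LRRN4 (1.11 and 0.405 CPM), and UPK3B was not called (0.754 and 0.437 CPM). MSLN was too low for a test (0.267 and 0.461 CPM). Luminal markers were called higher in 5 of 10 and lower in 2. Myoepithelial markers were called higher in 4 of 9 and lower in 2 (831 to 923 CPM and 795 to 1148 CPM). Adipocyte markers were called higher in 2 of 5 and lower in none (248 to 466 CPM and 723 to 869 CPM). That sum was carried by CIDEA, with means of 29.0 and 462 CPM, whereas FABP4 had 322 and 333 CPM and ADIPOQ 10.1 and 7.53 CPM, neither of them called. Markers of B and plasma cells stood at 2.78 to 4.45 CPM and 3.52 to 7.99 CPM, with 1 called higher and 1 lower of 2. Those of dendritic cells stood at 6.31 to 8.61 CPM and 11.4 to 16.6 CPM, with 1 called higher and 2 lower of 4. The higher sum came from BATF3 (3.03 and 12.3 CPM), while FLT3 (2.06 and 0.754 CPM) and CCR7 (0.760 and 0.185 CPM) were called lower, and XCR1 and CLEC9A were too low for a test. MARCO of the macrophage list and PAX5 of the B cell list had at most 3 reads in every library. The part of these marker differences in the values of the 9 genes was not tested.

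The comparison of the states was tested for the other genes of retinoid handling. Of 86 listed genes 69 had a row and 43 passed the filter, of which 23 were called higher in lactation, 13 lower and 7 neither by the edgeR quasi-likelihood test with Benjamini-Hochberg adjustment over all tested genes. Their median log2 difference was 0.28. Of all tested genes 68.4% were called in 1 direction or the other, 33.1% higher and 35.2% lower. The counts by list that follow stand beside these shares. Nothing is read from them, because the lists were chosen with earlier results of these data known. Under library size alone the split was 3 higher and 40 lower, beside 352 higher and 12705 lower of all 13345 tested genes. Nothing particular to these genes is read from that split.

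Of the carriers and uptake genes 1 was called higher and 4 lower, of 5 tested (median log2 difference -1.13). LRP2, or megalin, an endocytic receptor that takes up retinol bound to RBP4, fell from 309 ± 45.0 CPM (SD, 9 libraries) to 6.30 ± 1.33 CPM (SD, 6 libraries), a log2 change of -5.56 ± 0.14 (SE, adjusted p = 5.9e-17). No lactation library overlapped the late pregnancy range. TTR, the plasma partner of RBP4, was called lower with at most 2 reads in any lactation library (205 reads in late pregnancy and 5 in lactation, summed ratio 9.36, 95% exact interval 3.95 to 29.1). CRABP1, a close relative of CRABP2, fell by 1.13 on the log2 scale (adjusted p = 0.00378), and was not called within HM or LM alone. FABP5, which can also carry retinoic acid, was higher by 0.37 ± 0.13 (adjusted p = 0.0183), a call lost after upper quartile scaling (0.22, adjusted p = 0.131) and within each nutrition group alone.

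The genes of retinol and retinaldehyde oxidation and reduction were called higher in 4 and lower in 1 of 7 tested (median 0.81). RDH10, the enzyme that oxidises retinol to retinaldehyde in the embryo and in many tissues, rose from 16.3 ± 1.78 to 43.2 ± 9.30 CPM (log2 1.40 ± 0.10, adjusted p = 2.5e-10). RDH11, a retinaldehyde reductase, rose from 25.6 to 60.0 CPM (log2 1.22 ± 0.09, adjusted p = 5.1e-10). DHRS9 rose from 0.321 to 2.11 CPM (log2 2.62 ± 0.25, adjusted p = 1.3e-08). The aldose reductase AKR1B1 fell from 3.74 to 2.09 CPM (log2 -0.80 ± 0.14, adjusted p = 5.1e-05), and was not called within HM or MM alone. RDH10, RDH11 and DHRS9 had no overlap between the states, and RDH10 and RDH11 were lower under library size alone, at -0.51 and -0.68, above the median of all genes on that scale.

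Genes of retinyl ester formation and hydrolysis and of carotenoid cleavage were called higher in 5 of 6 tested and lower in none (median 0.92). LRAT, which makes retinyl esters from retinol, rose from 2.40 ± 0.437 CPM to 27.2 ± 5.23 CPM, 11.5-fold (log2 3.53 ± 0.12, adjusted p = 4.5e-15). The lowest lactation library had 19.3 CPM and the highest late pregnancy library 3.37 CPM. LPL, the lipase that frees fatty acids and retinol from circulating particles, rose from 12.7 to 1309 CPM (log2 6.69 ± 0.20, adjusted p = 4.2e-16). DGAT1, an acyltransferase of triglyceride synthesis that can also esterify retinol, rose from 8.20 to 17.5 CPM (log2 1.09 ± 0.09, adjusted p = 1.2e-09). The carotenoid oxygenase BCO2 had 16.6 and 16.4 CPM and was not called (adjusted p = 0.861). LRAT and LPL were higher under each scaling, whereas DGAT1 was at -0.81 under library size alone.

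Of the enzymes that break down retinoic acid, UGT2B7 had 0 reads in every library, and CYP26A1, CYP26B1 and CYP26C1 were not analysed here. Among receptors and their partners 10 were called higher and 2 lower of 13 tested (median 0.48). RARG, the third retinoic acid receptor, fell from 15.0 to 8.49 CPM (log2 -0.81 ± 0.10, adjusted p = 7.8e-07) and did not overlap between the states. RXRB fell from 36.5 to 30.5 CPM (log2 -0.25 ± 0.08, adjusted p = 0.00696), with overlap, and was not called within MM or LM alone. RXRG was too low for a test (0.322 and 0.239 CPM) and RXRA was not analysed here. The coactivators NCOA2 (log2 1.43 ± 0.09, adjusted p = 2.7e-11) and NCOA3 (1.31 ± 0.08, adjusted p = 2.6e-11) rose, as did the fatty acid receptor PPARD (1.25 ± 0.10, adjusted p = 7.5e-10). These 3 were lower under library size alone, at -0.48, -0.60 and -0.65.

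Of genes known to respond to retinoic acid 5 were called higher and 6 lower of 14 tested, with a median log2 difference of -0.31. LRAT was the largest among the higher ones, followed by the corepressor NRIP1 (0.91 ± 0.12, adjusted p = 1.6e-06) and RAI14, which encodes an actin-binding protein (0.82 ± 0.09, adjusted p = 8.3e-08). The lower ones were led by the integrin subunit ITGA4 (-1.26 ± 0.18, adjusted p = 5.1e-06), the transcription factor SOX9 (-1.08 ± 0.18, adjusted p = 2.2e-05) and TNFAIP2 (-0.97 ± 0.16, adjusted p = 2.4e-05). NRIP1 and RAI14 were lower under library size alone, at -1.0 and -1.09. ITGA4, which T cells also carry, was not called within HM alone, and T cell markers were lower in the same libraries, a part that was not tested.

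**Figure D4:**
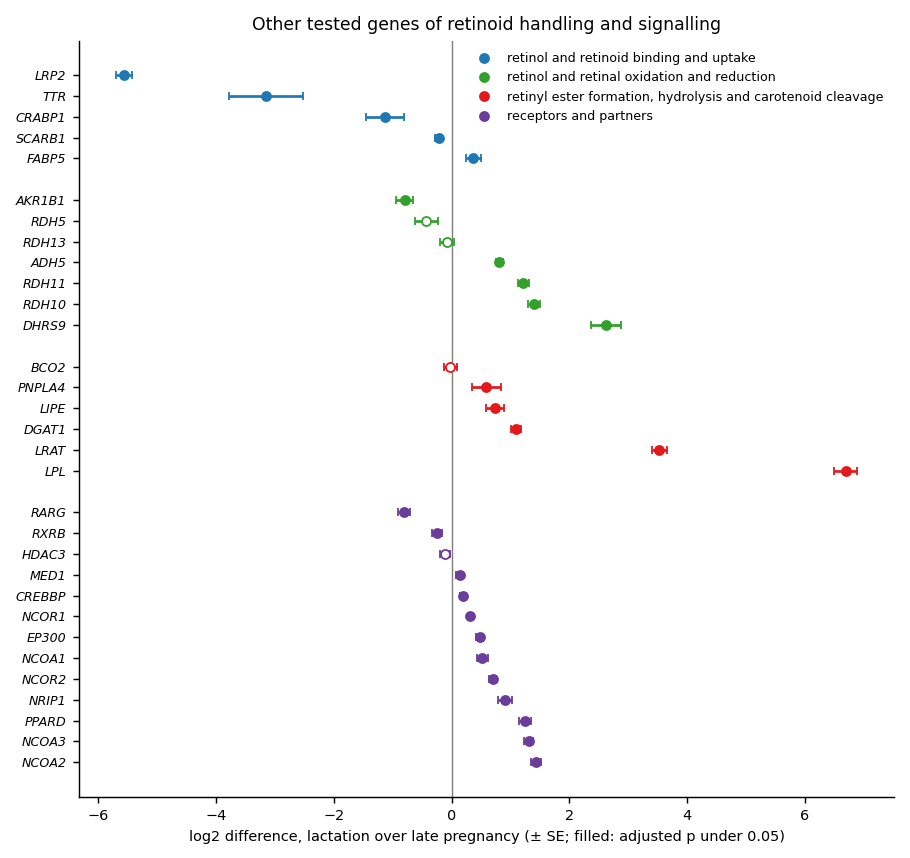
Log2 difference of lactation over late pregnancy (± SE) for the tested genes of 4 lists of retinoid handling and signalling, with the list given by colour. Filled points passed an adjusted p under 0.05. LPL (6.69) and LRAT (3.53) lie farthest to the right and LRP2 (-5.56) and TTR farthest to the left.

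The nutrition of the ewes' dams was not used in choosing the 9 genes and was tested over the 9 late pregnancy libraries. No gene of 13747 was called (0%), and 571 (4.15%) had an unadjusted p under 0.05. DESeq2 called 20 genes, none of them among the 9. Of the 9 genes 3 had an unadjusted p under 0.05. CRABP2 had the smallest. Its HM libraries had 12.9, 13.8 and 17.6 CPM, its MM libraries 19.4, 20.8 and 22.7 CPM and its LM libraries 18.6, 21.1 and 24.4 CPM. Every HM value was below every MM and LM value, and LM was higher than HM by 0.54 ± 0.13 (SE) on the log2 scale. The test of the 3 groups did not pass correction (edgeR adjusted p = 0.816, and 0.192 to 1.00 over the alternatives tried). LM against HM alone did not pass either (edgeR adjusted p = 0.994). Dam nutrition was partly aligned with the lane number in the column names, although the labels say that lanes were combined. All 3 LM libraries carried 1 lane number, while HM and MM each had 2 libraries on the other lane and 1 on that of LM. With lane as a covariate LM exceeded HM by 0.36. On the lane without LM, HM had 12.9 and 13.8 CPM and MM 19.4 and 20.8 CPM, and on the other lane HM had 17.6 CPM, MM 22.7 CPM and LM 18.6 to 24.4 CPM. In lactation the 3 groups overlapped, with means of 4.86, 5.40 and 5.53 CPM.

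ALDH1A2 had 4.06, 4.57 and 4.93 CPM in the HM libraries and 3.88, 4.01 and 5.10 CPM in the MM libraries. The LM libraries had 4.48, 7.26 and 7.57 CPM. LM exceeded HM by 0.50 ± 0.21 and MM by 0.57 ± 0.20 on the log2 scale. The test of the 3 groups did not pass correction (edgeR adjusted p = 1.00). ALDH1A3 was highest in MM (1.85 ± 0.369 CPM) and lowest in LM (1.12 ± 0.236 CPM). LM differed from MM by -0.70 ± 0.25 on the log2 scale. The test of the 3 groups did not pass for this gene either (edgeR adjusted p = 1.00). The other 6 genes had an unadjusted p above 0.05.

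Whether the difference between the states varied with dam nutrition was tested as an interaction over all 15 libraries. No gene of 13345 was called (0%), 876 (6.56%) had an unadjusted p under 0.05, and DESeq2 called 21. DHRS3 had the smallest value of the 9 genes. Its lactation levels were 26.4 and 33.6 CPM in HM, 57.2 and 64.0 CPM in MM and 32.2 and 47.3 CPM in LM, so both MM pools were above the other 4. Both HM lactation pools carried 1 lane number and both LM pools the other, with the MM pools divided between them. The late pregnancy means were 108 CPM in HM, 98.6 CPM in MM and 105 CPM in LM. The log2 difference between the states was accordingly -1.85 ± 0.14 in HM, -0.69 ± 0.10 in MM and -1.37 ± 0.21 in LM. The edgeR interaction did not pass correction (adjusted p = 0.657), whereas that of DESeq2 did (adjusted p = 0.0262), and the alternatives ranged up to 0.898. ALDH1A2 had an unadjusted p under 0.05 as well, and did not pass correction (edgeR adjusted p = 0.740). Its interaction uses the lactation counts at the floor by which the group was chosen, so nothing is read from this p-value. Both LM lactation pools held 0 reads of ALDH1A2. Its interaction term for LM ran from -6.05 to -0.50 when 1 library was left out.

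**Figure D5:**
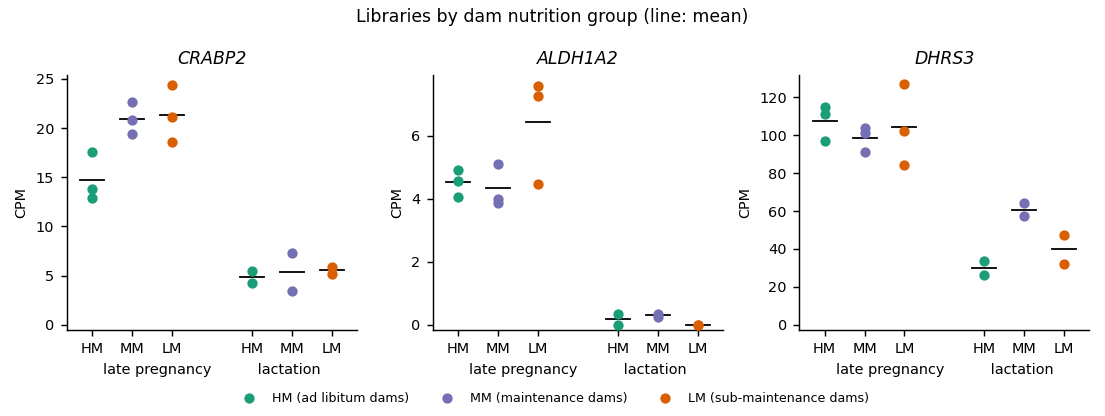
Levels in CPM of CRABP2, ALDH1A2 and DHRS3 by state and dam nutrition group, with 1 point per library and a line at the mean. CRABP2 was lowest in the HM libraries of late pregnancy, and DHRS3 was highest in the MM libraries of lactation.

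How the 9 genes vary together was examined over the late pregnancy libraries, whose variation among themselves was not used to choose the genes. Of the 36 pairs 16 had a positive correlation, and the median of Pearson's r was -0.07. No pair passed correction by the exact permutation test over 362880 pairings, and 1 pair had an unadjusted p under 0.05. That pair was RARB and STRA6, with Pearson's r of -0.84 (two-sided exact p = 0.00500, adjusted 0.180) and Spearman's rho of -0.78 (exact p = 0.0172, adjusted 0.310). Without the 2 libraries farthest from the median of RARB r was again -0.84, but on the quantile-normalised scale it was -0.79 over all libraries and -0.59 without 2. Both are genes of few reads, with 12 to 58 reads of RARB and 5 to 28 of STRA6 per library. ALDH1A2 and RARB had a Pearson's r of 0.62 (exact p = 0.0757, adjusted 0.695), a rho of 0.78 (exact p = 0.0172, adjusted 0.310) and an r of 0.57 without the 2 farthest libraries. On the quantile-normalised scale 2 pairs had an unadjusted p under 0.05 and none passed correction.

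The genes most like ALDH1A2 across the same 9 libraries, of 12243 compared by Pearson's r of log2(CPM + 0.5), were DIS3L (r 0.95, rho 0.78), LEPROT (0.92 and 0.72), LOC101120395 (0.91 and 0.88), IKZF5 (0.91 and 0.78) and IL1RL1 (0.91 and 0.82). These are the extremes of many correlations over few libraries and are given as a description. Their log2 differences between the states were -0.16, -0.26, -1.26, 0.07 and -2.65, all nearer to 0 than that of ALDH1A2.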

How the data were processed

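Libraries were made by the authors with a TruSeq kit, sequenced as paired reads on an Illumina instrument and mapped to the sheep genome in CLC Genomics Workbench, with 2 lanes combined per library. Whether counting used strand is not given in the sources used here. The authors deposited read counts on exons and on whole genes, without normalization, for 24691 features. They also deposited RPKM (recomputed here to within 3.5e-07 of their size) and a normalised RPKM that is quantile-normalised across libraries. Columns with the authors' own comparisons, which hold fold changes and p-values of the Baggerly test, were not used.

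Exon reads (reads on the whole gene for the 5583 features without a transcript) were tested with edgeR 4.0.16 in R 4.3.3, using filterByExpr, TMM scaling and the quasi-likelihood F-test. Genes were called at a Benjamini-Hochberg adjusted p under 0.05, taken over every tested gene. Log2 values are lactation over late pregnancy, and their SE is the absolute value divided by the square root of F. CPM are per 1000000 reads of the TMM library size, and a level that 3 reads would give was taken as the limit for a count of 0. Ratios of summed reads are taken per summed TMM library size and have exact Clopper-Pearson 95% intervals. Dam nutrition was tested over 9 libraries and its interaction with state over 15. Member pairs were tested by exact permutation over all pairings of log2(CPM + 0.5). Alternatives used DESeq2 1.42.0, limma 3.58.1 on log2(quantile-normalised RPKM + 1), other scalings and filters, uniquely placed reads, intron reads, single nutrition groups and each library left out. A lane covariate was chosen after seeing the data. The tests were checked on simulated data. Replicate libraries differed beyond counting noise (chi-square per degree of freedom 5.50 to 28.5) and none was treated as a duplicate.

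The 9 genes, the pathway lists and the marker lists were chosen with earlier results of these data known. Of the lists, RARG, RXRA, RXRB, RXRG, LRAT, RDH10, CYP26A1 and CYP26B1 were to be named whatever their values, with the 3 called genes of largest log2 difference per list and direction, and others where stated. Some listed genes are not reported here and stand outside the counts. Of 7615 features identified by gene number, 4525 matched RefSeq (ARS-UI_Ramb_v3.0) and 861 gained a name. No sequence is shown.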

Additional observations from a re-analysis of the deposited data

Results flagged for a closer look

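In 60 groups of libraries looked at for a value far from the rest, 3 stood out, about as many as a rate of 1 in 20 by chance would give, and none belonged to the 9 retinoid genes. DGAT1 had 19.6 CPM in the second LM lactation pool, while the other lactation libraries had 16.7 to 17.6 CPM. NCOA3 had 76.5 CPM in the second HM lactation pool, against 62.0 to 65.4 CPM in the others. SOX9 had 12.9 CPM in the third MM late pregnancy pool, against 6.85 to 9.75 CPM in the other late pregnancy libraries. Each of these values lies in the direction that widens the difference between the states.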

How the results depend on the processing

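The comparison of the states called 9122 genes, and 5933 within HM alone, where fewer libraries entered. Leaving out 1 library gave 8891 to 9049. Of the other retinoid genes 23 were called higher and 13 lower. These counts are of 43 tested. Library size alone gave 3 higher and 40 lower of 43, beside 352 higher and 12705 lower of all 13345 tested genes. With at least 10 reads required in every library, 8 of 31 tested were lower. Within HM 6 of 41 tested were lower. Under library size alone, where the median of all genes was -1.94, RDH10 (-0.51), FABP5 (-1.53), RDH11 (-0.68), DGAT1 (-0.81), NCOA2 (-0.48), NCOA3 (-0.60), PPARD (-0.65), NRIP1 (-1.0) and RAI14 (-1.09) turned from higher to lower. Dam nutrition in late pregnancy called 0 genes (571 with an unadjusted p under 0.05), DESeq2 called 20, and the lactation libraries alone called 1. Leaving out 1 library gave 0 to 1, the 1 without the first LM pool of late pregnancy. The interaction called 0 (876 unadjusted), DESeq2 called 21 and no filter gave 2. Leaving out 1 library gave 0 to 10, with 10 without the second HM lactation pool and 2 without the second LM lactation pool. Except where a cause is named, it was not tested.

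No pairing of the libraries by pool number was seen. The correlation of deviations ran from -0.05 to 0.11 between the states and from -0.06 to 0.12 between nutrition groups. The main fits therefore did not use the numbers. With few pools per group this check cannot exclude that libraries share ewes. With the replicate block the comparison of the states called 8464 genes, and dam nutrition and the interaction called 0 each. Depth limits ALDH1A2 and STRA6 in lactation, where the 6 libraries held 8 and 13 reads in all.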
